A study of Mus musculus with 26 samples.

Results

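Plac8, Fgf3 and Trim16 are 3 genes that were chosen by their measured expression, because they were strongly higher in the CR Sca1lo fraction of mouse EML cells than in the Sca1hi fraction. EML cells are an immortal line of blood progenitors that depends on stem cell factor (SCF) and can form erythroid, myeloid and lymphoid cells, and its cells were separated into fractions by flow cytometry. The 3 genes were found by their symbols among 18378 named symbols on the array, and 5 probes stood for them: 1 probe each for Plac8 (A_51_P515883) and Fgf3 (A_51_P205028) and 3 for Trim16 (A_51_P502580, A_52_P325477 and A_52_P212650). All 3 genes passed the filter on dim probes in every array set.

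The 26 arrays, each hybridised with 1 RNA sample labelled with Cy3, form 8 groups in 3 sets of slides. The first set held EryCP, CR Sca1lo and Sca1hi cells (3 samples each), grown with horse serum and medium containing SCF. The second set held Ediff (3 samples), which are cells negative for CD34 and cKit that arose when the EryCP fraction differentiated under erythropoietin (Epo), and EryCP repeat (3 samples), the EryCP fraction measured again. The third set held CD34- CD103- cells after Epo (CD34- CD103- Epo, 3 samples), CD34- CD103- cells (4 samples) and CD34+ CD103- cells (4 samples). Sample titles begin with EML in the first and second sets and with EMLe2 in the third, where the line of origin is still labelled EML, and what EMLe2 means is not stated. What CR and EryCP abbreviate, the cutoffs of the gates, and the dose and time of Epo are not stated in the labels. The labels also do not say whether each sample of a group was a culture of its own, so p-values measure only the spread between these samples, which may be technical. In bulk RNA, fewer cells that express a gene and less RNA per cell cannot be told apart.

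Plac8 encodes a small cysteine-rich protein first described in placenta and found in myeloid and lymphoid cells. Fgf3 encodes a secreted fibroblast growth factor (FGF), which acts through FGF receptors and the MAP kinase cascade and is best known from the developing inner ear and from mouse mammary tumours, where a nearby viral insertion activates it. Trim16 encodes a tripartite motif (TRIM) protein that works with galectins in the clearance of damaged endosomes and lysosomes and has a role in the response to oxidative stress.

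The sorting markers bore on the labels as follows. Ly6a, which encodes Sca1, was lower in CR Sca1lo than in Sca1hi by a log2 difference of -5.56, and Cd34 was lower in EryCP than in CR Sca1lo by -4.72. In Ediff over EryCP repeat, Cd34 differed by -7.64 and Kit by -3.31. In CD34- CD103- over CD34+ CD103-, Cd34 differed by -1.78 and Itgae, which encodes CD103, by 1.53, although both fractions are labelled CD103-. Between 76.2% and 93.9% of the spots of an array were well above background, and no spot was saturated. Levels below are log2 signals relative to the 75th percentile of the array, and they were compared only within a set, since sets lie on different slides.

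The promoter windows of Plac8 and Fgf3 are shown because both genes were higher in CR Sca1lo than in Sca1hi and lower in Ediff than in EryCP repeat. Of the 3 genes, Plac8 and Fgf3 matched the RefSeq promoter table used here and Trim16 did not. RefSeq lists 2 starts for Plac8 on chromosome 5 and 1 for Fgf3 on chromosome 7 (assembly GRCm38.p6), and each window runs 5′ to 3′ on the gene's strand from 250 bases before the start to 50 bases after it. Capitals mark matches, on either strand, to 6 motifs that were chosen after the values of the genes were known: the letters CACGTG for the E-box of basic helix-loop-helix factors, AGATAA for the site of erythroid zinc finger factors, CCAAT for the box bound by nuclear factor Y, TATAAA for the box near many transcription starts, GGGCGG for the box bound by Sp factors, and TGTGGT for the site of RUNX factors. No match overlapped another.
Plac8, chr5:100572156-100572455, minus strand: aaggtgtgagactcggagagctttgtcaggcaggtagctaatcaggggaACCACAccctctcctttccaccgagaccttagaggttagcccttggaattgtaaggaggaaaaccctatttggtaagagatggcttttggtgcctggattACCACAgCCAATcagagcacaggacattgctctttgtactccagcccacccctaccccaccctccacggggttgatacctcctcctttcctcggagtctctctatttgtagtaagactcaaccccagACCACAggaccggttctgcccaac
Plac8, chr5:100563047-100563346, minus strand: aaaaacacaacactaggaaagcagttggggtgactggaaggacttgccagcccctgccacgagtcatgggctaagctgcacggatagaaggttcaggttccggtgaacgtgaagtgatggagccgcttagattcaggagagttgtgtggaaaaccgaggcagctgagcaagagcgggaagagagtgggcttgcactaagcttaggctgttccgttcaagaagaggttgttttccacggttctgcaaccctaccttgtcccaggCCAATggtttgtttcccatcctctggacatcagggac
Fgf3, chr7:144838362-144838661, plus strand: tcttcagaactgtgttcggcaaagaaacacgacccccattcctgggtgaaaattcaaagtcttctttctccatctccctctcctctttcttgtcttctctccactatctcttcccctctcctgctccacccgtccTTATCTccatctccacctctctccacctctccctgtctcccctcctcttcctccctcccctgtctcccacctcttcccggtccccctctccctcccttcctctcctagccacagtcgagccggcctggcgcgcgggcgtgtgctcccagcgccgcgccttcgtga
The first Plac8 window held 3 matches to TGTGGT, all read as ACCACA, at -201, -101 and 27 from the start, and 1 CCAAT at -94. The second held a CCAAT at 14. The Fgf3 window held 1 match to AGATAA, read as TTATCT, at -115. Among 32851 RefSeq promoter windows of the same length, TGTGGT was in 16.8%, AGATAA in 11.2% and CCAAT in 37.4%. CACGTG (in 7.15% of all windows), TATAAA (13.6%) and GGGCGG (35.7%) matched nowhere in these 3 windows. The Fgf3 window was 59.3% G and C and the Plac8 windows 52.7% and 53%, against a median of 52.7% over all windows. No motif match was shared between a Plac8 window and the Fgf3 window.

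CR Sca1lo cells held far more RNA of all 3 genes than Sca1hi cells. This comparison chose the genes, so its values, and those of the other comparisons of the same 9 arrays, are given without a test. Plac8 stood at 2.11, 2.05 and 1.4 in the 3 CR Sca1lo samples, against -2.15, -2.55 and -2.67 in Sca1hi. Fgf3 stood at 1.4, 1.52 and 1.12 in CR Sca1lo, against -1.38, -1.68 and -2.36 in Sca1hi. Trim16 stood at 1, 1 and 0.42 in CR Sca1lo, against -2.05, -2.24 and -2.48 in Sca1hi. Every CR Sca1lo sample lay above every Sca1hi sample for each of the 3 genes, and the third CR Sca1lo sample was the lowest of its group for each.

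The log2 difference, CR Sca1lo over Sca1hi, was 4.31 ± 0.27 (SE) for Plac8, a 19.8-fold difference. It was 3.15 ± 0.27 for Fgf3 (8.89-fold) and 3.06 ± 0.24 for Trim16 (8.36-fold). Of 26465 genes compared, 3.59% were called in either direction by limma at an adjusted p under 0.05 and 2.38% were called lower. The share called higher in CR Sca1lo was 1.21%, and since this comparison chose the 3 genes, nothing is read from their place among them. Each of the 3 slides of this set carried 1 sample of each fraction. Within slides the difference ran from 4.06 to 4.66 for Plac8, from 2.9 to 3.48 for Fgf3 and from 2.9 to 3.24 for Trim16, so each slide gave the same direction. With normexp background correction, which lifts dim spots, the differences were 2.64, 1.77 and 1.71 for Plac8, Fgf3 and Trim16.

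**Figure D1:**
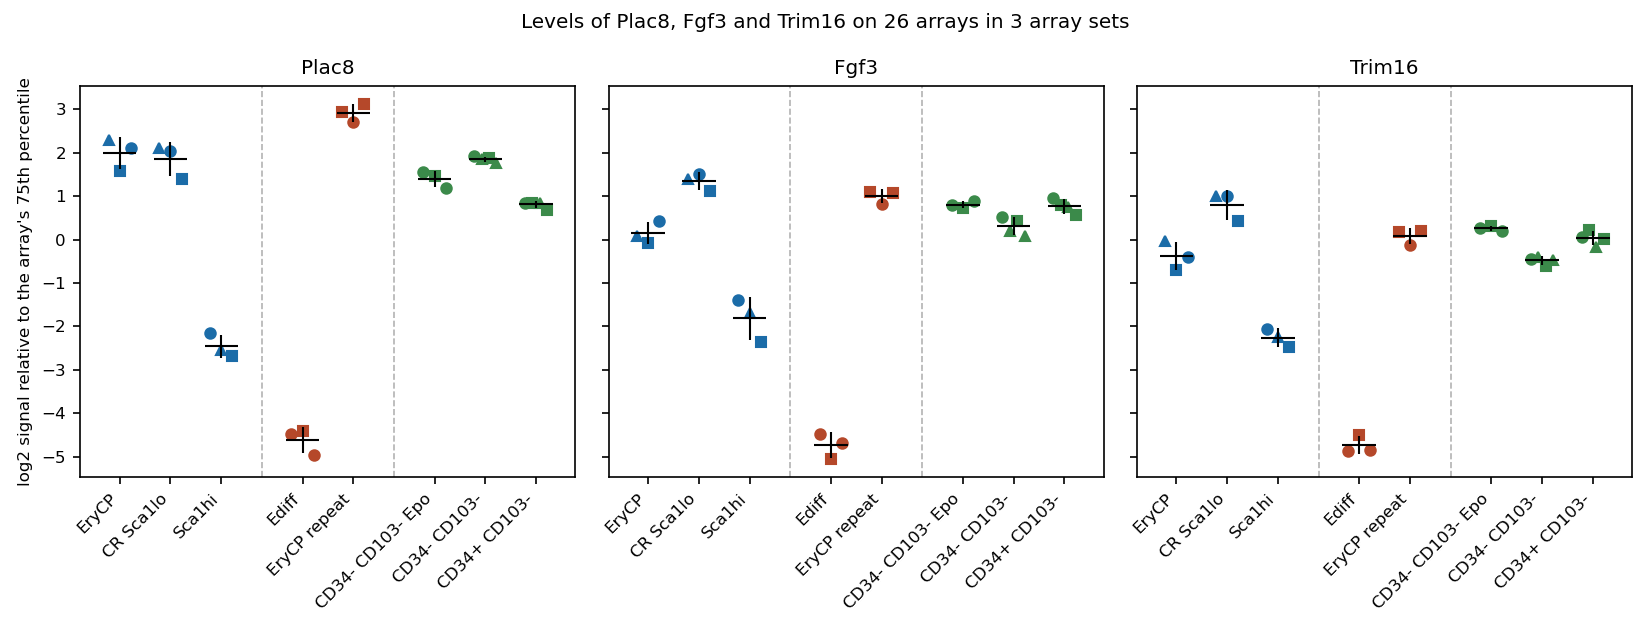
Each point is 1 of the 26 arrays, with the log2 signal relative to the array's 75th percentile on the vertical axis and the 8 groups on the horizontal axis. Dashed lines part the 3 array sets, point shapes mark slides within a set, and black bars give the group mean and SD. Within the first set all 3 genes are lowest in Sca1hi, and within the second they are lower in Ediff than in EryCP repeat without overlap.

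EryCP cells, which are low in Cd34 RNA, overlapped CR Sca1lo cells in Plac8 but held less Fgf3 and Trim16. Plac8 stood at 2.3, 1.58 and 2.11 in EryCP, which overlaps CR Sca1lo, and the difference, EryCP over CR Sca1lo, was 0.15 with a 95% interval of -0.48 to 0.77. Fgf3 stood at 0.08, -0.08 and 0.44 in EryCP, all below the CR Sca1lo samples, a difference of -1.2 ± 0.27 or 2.3-fold. Trim16 stood at -0.04, -0.69 and -0.4 in EryCP, also without overlap, a difference of -1.18 ± 0.24 or 2.27-fold. With normexp correction, where the median gene lay at -0.55, the differences relative to the median gene were -0.24 for Fgf3 and -0.29 for Trim16, against -1.13 and -1.11 on the 75th percentile scale. The background in this comparison was 4.95% of genes called in either direction, 2.7% higher and 2.26% lower.

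Against Sca1hi, EryCP cells were still high in all 3 genes, with differences of 4.45 ± 0.27 for Plac8, 1.95 ± 0.27 for Fgf3 and 1.88 ± 0.24 for Trim16. No EryCP sample overlapped a Sca1hi sample, and 6.39% of all genes were called in this comparison, 3.1% higher and 3.29% lower in EryCP. The order of the fractions was thus CR Sca1lo, EryCP, Sca1hi from high to low for Fgf3 and Trim16. For Plac8, EryCP and CR Sca1lo did not differ beyond their spread and both lay above Sca1hi.

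Markers of other cell types also differed between these fractions. The summed linear level of 9 mast cell and basophil genes was 872 to 1180 in EryCP, 276 to 373 in CR Sca1lo and 272 to 393 in Sca1hi. Of the 9, 7 were called higher in EryCP than in CR Sca1lo, against 2.7% of all genes. For 9 neutrophil and monocyte genes the sum was 56.2 to 92.1 in EryCP, 302 to 447 in CR Sca1lo and 276 to 365 in Sca1hi. The low sum in EryCP was not shared by most of the list. Of 8 that passed the filter, 2 were called higher and 1 lower in EryCP than in CR Sca1lo (median -0.06), against 2.7% and 2.26% of all genes. In EryCP over Sca1hi 2 were called higher and 2 lower (median 0.08), against 3.1% and 3.29%. Neither the mast cell and basophil sum nor the neutrophil and monocyte sum separated CR Sca1lo from Sca1hi, but other sums did. The sum of 8 measured macrophage and dendritic genes was 5 to 7.95 in EryCP, 1.64 to 2.71 in CR Sca1lo and 3.03 to 4.8 in Sca1hi, and that of 9 erythroid genes 23.5 to 28.3 in EryCP, 13.7 to 16.1 in CR Sca1lo and at most 13 in Sca1hi. Few of these genes were called in CR Sca1lo over Sca1hi. Of 6 macrophage and dendritic genes that passed the filter, 1 was called lower and 0 higher. Of the 9 erythroid genes, 1 was called higher and 0 lower (median 0.15 against 0.03 for all genes). Of 7 megakaryocyte genes, 4 were called higher and 1 lower in CR Sca1lo than in Sca1hi (median 0.88), against 1.21% and 2.38% of all genes. Their sums were 20.6 to 27.4 in CR Sca1lo and 16.1 to 21.2 in Sca1hi, which overlap. The part of these markers in the differences of Plac8, Fgf3 and Trim16 was not tested.

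Ediff cells held very little RNA of the 3 genes. Plac8 stood at -4.48, -4.4 and -4.95 in Ediff, against 2.94, 2.71 and 3.12 in EryCP repeat. Fgf3 stood at -4.47, -5.05 and -4.68 in Ediff, against 1.1, 0.82 and 1.07 in EryCP repeat. Trim16 stood at -4.87, -4.5 and -4.84 in Ediff, against 0.17, -0.12 and 0.2 in EryCP repeat. The groups lay far apart for each gene, and the 3 Ediff samples of a gene lay within 1 log2 unit of each other. The signals of the 3 genes in Ediff were 13.2 to 20.8 before log2, which the scanner software called well above background, and the dimmest signals so called on these arrays were 5.75 to 8.91.

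The fall was measured on arrays that had no part in choosing the genes. Plac8 fell by 7.54 ± 0.19 on the log2 scale in Ediff (185-fold; limma, adjusted p = 2.84e-06), Fgf3 fell by 5.73 ± 0.18 (53.1-fold; limma, adjusted p = 4.74e-06) and Trim16 fell by 4.82 ± 0.15 (28.2-fold; limma, adjusted p = 5.31e-06). All 3 genes were called lower, against 16.8% of the 24703 genes tested, while 39.8% were called higher and 56.6% in either direction. By size, Plac8 was the 19th steepest of 6845 genes with a lower mean in Ediff, Fgf3 the 113th and Trim16 the 179th. On the 2 slides the difference was -7.43 both times for Plac8, -6.13 and -5.39 for Fgf3, and -4.73 and -4.68 for Trim16.

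The median gene differed by 0.45 in Ediff over EryCP repeat, and by -0.59 when arrays were scaled on spike-in RNA. Spike-in scaling, which shifts every gene of an array alike, gave -8.58 for Plac8, -6.78 for Fgf3 and -5.87 for Trim16. With normexp background correction the differences were -3.85 for Plac8, -2.02 for Fgf3 and -1.43 for Trim16, and none of the 3 was called (limma, adjusted p = 0.0504, 0.382 and 0.75). Without spots of outlying local background, a setting added after the data were seen, the same correction gave -5.49, -3.52 and -2.78 and called all 3. The deposited values gave -6.11 for Plac8, -4.25 for Fgf3 and -3.56 for Trim16. The size of the fall, and so its fold, thus varied with the processing.

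The marker sums of Ediff differed widely from those of EryCP repeat. All 9 erythroid marker genes, such as Alas2 and Slc4a1, were called higher in Ediff, against 39.8% of all genes. Their summed level was 906 to 937 against 45.6 to 58.7 in EryCP repeat. Of 9 mast cell and basophil genes, 8 were called lower in Ediff, against 16.8% of all genes. The sum of the 9 was 11.9 to 14.9 against 946 to 1070 in EryCP repeat. The neutrophil and monocyte sum was 0.736 to 0.986 in Ediff against 51.2 to 60.5 in EryCP repeat. The part of these markers in the fall of Plac8, Fgf3 and Trim16 was not tested.

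In the third set the 3 genes differed in opposite directions. Plac8 stood at 1.92, 1.85, 1.87 and 1.77 in CD34- CD103- cells, against 0.85, 0.85, 0.84 and 0.68 in CD34+ CD103- cells. Fgf3 stood at 0.53, 0.19, 0.42 and 0.09 in CD34- CD103- cells, against 0.97, 0.79, 0.75 and 0.56 in CD34+ CD103- cells. Trim16 stood at -0.44, -0.39, -0.61 and -0.48 in CD34- CD103- cells, against 0.06, 0.22, -0.17 and 0.01 in CD34+ CD103- cells. Plac8 was higher and the other 2 were lower in CD34- CD103- cells, and no gene's samples overlapped between the fractions, although for Fgf3 the gap was only from 0.53 to 0.56. Here and in the other sets, the share of all genes whose samples did not overlap was not counted.

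Plac8 differed by 1.05 ± 0.09 in CD34- CD103- over CD34+ CD103- (2.06-fold; limma, adjusted p = 2.96e-05). Trim16 differed by -0.51 ± 0.09 (1.43-fold; limma, adjusted p = 0.00454) and Fgf3 by -0.46 ± 0.12 (1.38-fold; limma, adjusted p = 0.0281). Thus 1 of the 3 was called higher, against 5.66% of 27360 genes, and 2 were called lower, against 6.82%. The Fgf3 call was lost when CD34- CD103- sample 2 or 4 or CD34+ CD103- sample 1 or 2 was left out, with adjusted p = 0.0632 to 0.084 by limma. Within the 3 slides the differences were 0.97 to 1.1 for Plac8, -0.61 to -0.25 for Fgf3 and -0.73 to -0.26 for Trim16.

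After Epo, CD34- CD103- cells held more Trim16, and none of the 3 genes came near the fall seen in Ediff. Trim16 stood at 0.26, 0.32 and 0.2 in CD34- CD103- Epo, above all 4 CD34- CD103- samples, and rose by 0.74 ± 0.1 (1.67-fold; limma, adjusted p = 0.0026). Fgf3 stood at 0.79, 0.73 and 0.89 in CD34- CD103- Epo, also above all 4, yet its difference of 0.5 (95% interval 0.21 to 0.78) was not called (limma, adjusted p = 0.0756). Plac8 stood at 1.55, 1.46 and 1.18 in CD34- CD103- Epo, below all 4 CD34- CD103- samples, a difference of -0.45 ± 0.1 (1.37-fold; limma, adjusted p = 0.0412). Of the 3 genes, 1 was called higher, against 0.676% of all genes, and 1 lower, against 1.92%, with 2.6% called in either direction.

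The Plac8 call was weak. With slide as a block it was -0.47 (limma, adjusted p = 0.0676), and of 7 fits that each left out 1 sample it was called only without the first CD34- CD103- Epo sample, with adjusted p from 0.0477 to 0.177 over the 7. The Trim16 call held in all 7 but not under spike-in scaling, where the difference was 0.5 (limma, adjusted p = 0.132). Of the 3 slides, 2 carried both groups, and on them the difference was -0.56 and -0.41 for Plac8, 0.31 both times for Fgf3, and 0.67 and 0.94 for Trim16.

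Against CD34+ CD103- cells, which share the Epo samples with the comparison above, CD34- CD103- Epo cells were higher in Plac8 by 0.59 ± 0.1 (1.51-fold; limma, adjusted p = 0.00649), and 2.57% of all genes were called higher and 5.52% in either direction. Under spike-in scaling that difference was 0.05 and was not called (limma, adjusted p = 0.823), while the median gene differed by -0.53. Fgf3 differed by 0.04 (95% interval -0.25 to 0.32; limma, adjusted p = 0.952) and Trim16 by 0.23 (0.01 to 0.45; limma, adjusted p = 0.282). The order in this set was therefore CD34- CD103-, CD34- CD103- Epo, CD34+ CD103- for Plac8. For Fgf3 and Trim16, CD34- CD103- Epo and CD34+ CD103- samples overlapped and CD34- CD103- lay below both.

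**Figure D2:**
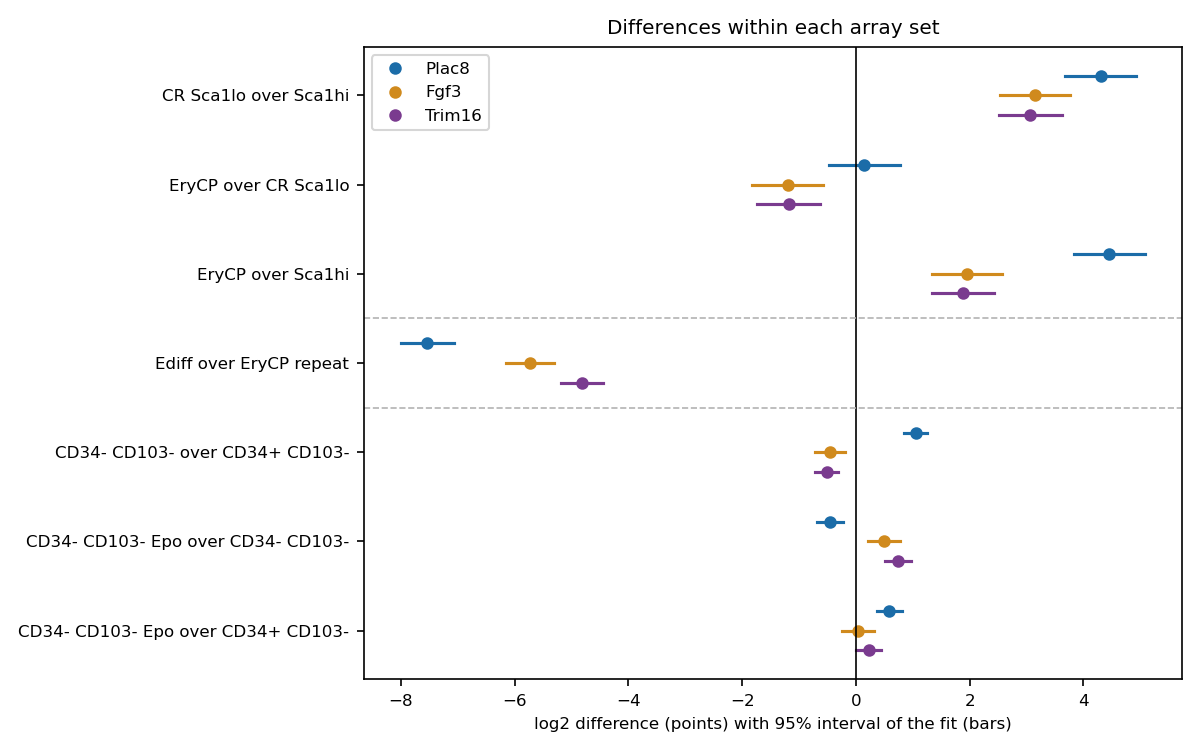
The horizontal axis is the log2 difference between the groups named on the left, with the fitted difference as a point and its 95% interval as a bar, and dashed lines part the 3 array sets. The 3 genes lie on the same side of 0 in CR Sca1lo over Sca1hi, EryCP over Sca1hi and Ediff over EryCP repeat, while Plac8 opposes Fgf3 and Trim16 in CD34- CD103- over CD34+ CD103- (1.05 against -0.46 and -0.51).

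The marker sums of the third set differed between its groups too. The mast cell and basophil sum was 588 to 620 in CD34- CD103- Epo, 943 to 1020 in CD34- CD103- and 444 to 462 in CD34+ CD103-. Of those 9 genes, 7 were called higher in CD34- CD103- than in CD34+ CD103-, against 5.66% of all genes. In CD34- CD103- Epo over CD34- CD103-, 6 of the 9 were called lower, against 1.92%. The neutrophil and monocyte sum was 252 to 322 in CD34- CD103- Epo and 197 to 227 in CD34- CD103-. In CD34+ CD103- it was 382 to 480. Of these 9 genes, 3 were called higher and 1 lower in CD34- CD103- than in CD34+ CD103-, against 5.66% and 6.82% of all genes. In CD34- CD103- Epo over CD34- CD103-, 1 was called higher and 4 lower, against 0.676% and 1.92%. The neutrophil and monocyte sums thus went against most of the calls. The megakaryocyte sum was 36.1 to 47.6 in CD34- CD103- Epo and 31.1 to 37.7 in CD34- CD103-. In CD34+ CD103- it was 18.6 to 24.1. The macrophage and dendritic sum, with Mrc1 not above background in any group of this set, was 2.76 to 3.04 in CD34- CD103- Epo, 19 to 22.6 in CD34- CD103- and 2.17 to 2.71 in CD34+ CD103-. That step was not shared by most of the list. Of 6 macrophage and dendritic genes that passed the filter, 1 was called higher and 1 lower in CD34- CD103- than in CD34+ CD103- (median 0.08). In CD34- CD103- Epo over CD34- CD103-, 1 was called higher and 2 lower (median 0). The erythroid sum was 19.3 to 22.5 in CD34- CD103- Epo, 21.4 to 23.2 in CD34- CD103- and 15.6 to 19.4 in CD34+ CD103-. Of the 9 erythroid genes, 6 were called higher and 0 lower in CD34- CD103- than in CD34+ CD103- (median 2.21), against 5.66% of all genes higher. In CD34- CD103- Epo over CD34+ CD103-, 6 were called higher and 0 lower (median 1.69), against 2.57% higher. By limma 0 of the 9 erythroid genes were called higher after Epo (also 0 at an unadjusted p under 0.05) and 1 was called lower (5 unadjusted). Of all genes, 0.676% were called higher and 1.92% lower after Epo. The part of these markers in the differences of Plac8, Fgf3 and Trim16 was not tested.

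The 2 Epo responses, Ediff over EryCP repeat and CD34- CD103- Epo over CD34- CD103-, were compared directly, each within its own set, the first in samples titled EML and the second in samples titled EMLe2. The first response was lower than the second by 7.08 ± 0.21 on the log2 scale for Plac8 (difference -7.08; limma, adjusted p = 3.33e-10). For Fgf3 the difference was -6.23 ± 0.22 (limma, adjusted p = 8.81e-10) and for Trim16 -5.56 ± 0.17 (limma, adjusted p = 3e-10). All 3 were called, against 16% of 24446 genes lower and 42.2% in either direction. Ediff samples were CD34-negative, cKit-negative cells taken after Epo, whereas no such selection after Epo is stated for the other group, so treatment and selection cannot be told apart here.

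The 3 Trim16 probes moved the same way wherever the differences were large. From CR Sca1lo over Sca1hi they gave 3.06, 2.8 and 3.37 (A_51_P502580, A_52_P325477, A_52_P212650), from EryCP over CR Sca1lo -1.18, -1.26 and -0.96, and from Ediff over EryCP repeat -4.82, -3.84 and -4.41. A_52_P212650 was the dimmest, and it was not well above background on any Sca1hi or Ediff array. For it the level in CR Sca1lo was at least 6.76-fold higher than in Sca1hi, and the level in Ediff at least 5.02-fold lower than in EryCP repeat (limma, adjusted p = 6.82e-06). These bounds set the bright group against the higher of the probe's own signal and the dimmest signal called well above background on each array. A_52_P325477 was well above background on 1 of 3 Ediff arrays (limma, adjusted p = 1.17e-05).

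In the third set the probes disagreed. A_52_P325477 followed A_51_P502580, with -0.5 in CD34- CD103- over CD34+ CD103- (limma, adjusted p = 0.00924) and 0.61 after Epo (limma, adjusted p = 0.0164). A_52_P212650 gave -0.19 (95% interval -0.61 to 0.23; limma, adjusted p = 0.611) and 0.1 (-0.35 to 0.55; limma, adjusted p = 0.823). Its samples on the third slide were the highest of their groups, at -3.2 and -3.21 in CD34- CD103- and -2.84 in CD34+ CD103-, and that slide carried no Epo sample. Within slides this probe gave -0.41 to -0.23 for CD34- CD103- over CD34+ CD103- and 0.32 to 0.48 for CD34- CD103- Epo over CD34- CD103-, the same directions as the other two.

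**Figure D3:**
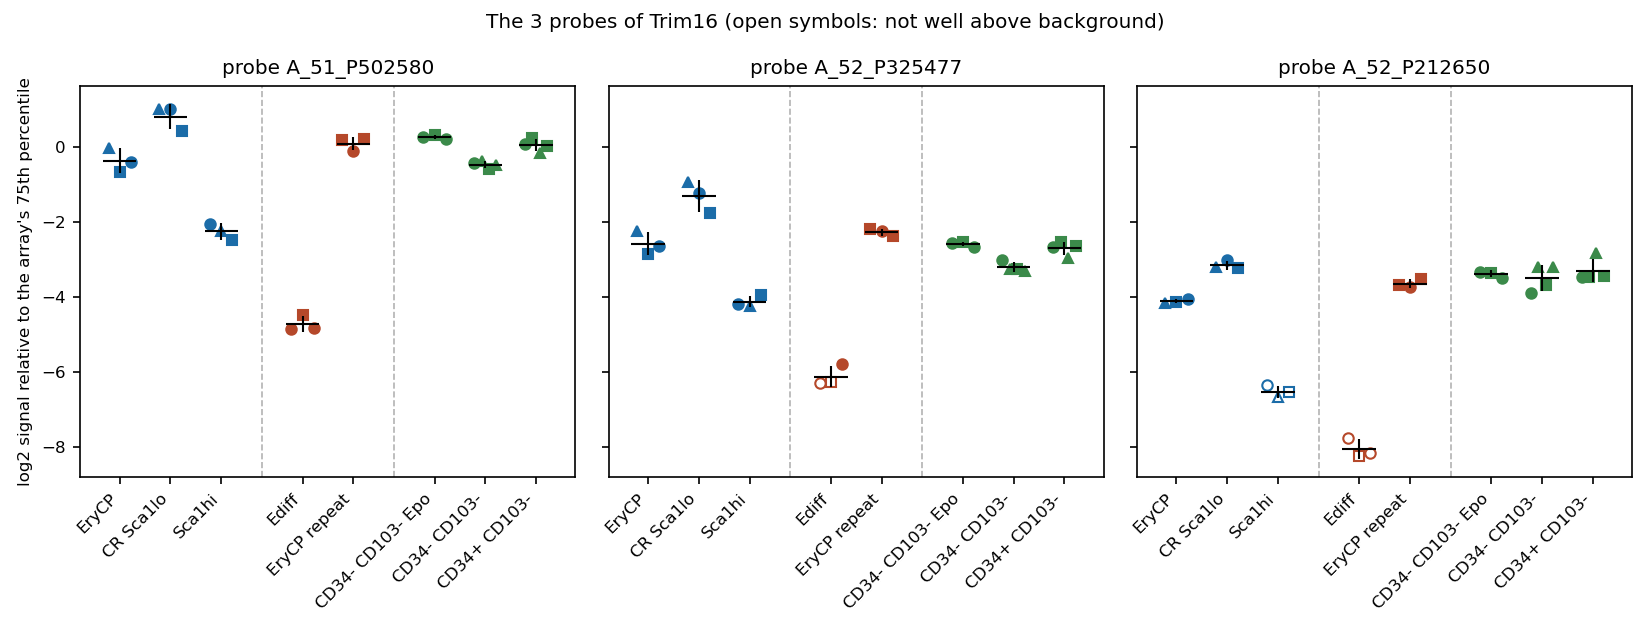
The log2 signals relative to the array's 75th percentile (vertical axis) of the 3 Trim16 probes are shown for the 26 arrays in 8 groups, with black bars for the mean and SD, shapes for slides and open symbols for spots not well above background. The probes differ in brightness but share the low levels in Sca1hi and Ediff, and A_52_P212650 has 3 arrays of 1 slide (triangles) above the rest in the third set.

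No other FGF ligand gene was called lower in Ediff on the 75th percentile scale. Of 21 other ligand genes, 20 were on the array and 15 passed the filter in the second set. In Ediff 7 of the 15 were called higher and 0 lower by limma (0 lower also at an unadjusted p under 0.05), against 39.8% of all genes higher and 16.8% lower. Under spike-in scaling 1 was called higher and 2 lower, where 12036 of 24703 genes were called, 6.78% of them higher. On the main scale, the calls were as follows. Among the 7 were Fgf8 (2.19; adjusted p = 0.000494), Fgf21 (1.03; adjusted p = 0.0255) and Fgf13 (0.86; adjusted p = 0.00411, all by limma), and the signs of Fgf21 and Fgf13 turned under spike-in scaling. The ligands' median difference was 0.79 against 0.45 for all genes. In CR Sca1lo over Sca1hi, EryCP over CR Sca1lo and each comparison of the third set, 0 of 17 ligands were called by limma, and at an unadjusted p under 0.05 the count was 0 in CR Sca1lo over Sca1hi and 1 in CD34- CD103- Epo over CD34- CD103-. Of all genes, 2.6% to 12.5% were called in those comparisons. Under spike-in scaling 10 of 17 were called lower in CD34- CD103- Epo over CD34+ CD103-. That scaling called 17195 of 27360 genes there, 0.837% of them higher. In CD34- CD103- over CD34+ CD103- it called 2 of 17 lower and 9299 of all genes, 6.04% of the latter higher. With slide as a block 1 of 17 was called higher in CR Sca1lo over Sca1hi, against 9.64% of all genes.

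Genes of FGF receptors and their signalling were called in Ediff at shares close to those of all genes in the higher direction. In Ediff over EryCP repeat, 9 of 23 receptor and pathway genes were called higher and 6 lower, against 39.8% and 16.8% of all genes, with a median of 0.41 against 0.45 (0 higher and 10 lower under spike-in scaling). Spike-in scaling called 12036 of 24703 genes here, 6.78% of them higher. Dusp6, a phosphatase that switches off ERK and is itself an ERK target, fell by 3.62 ± 0.14 on the log2 scale (limma, adjusted p = 9.34e-06), and Etv4, an ETS transcription factor downstream of FGF, fell by 3.53 ± 0.14 (limma, adjusted p = 1.05e-05). Spry4, a feedback inhibitor of receptor tyrosine kinases, was not well above background in Ediff and was at least 1.66-fold lower there (limma, adjusted p = 2.24e-05), but its sign turned with both forms of normexp correction. Kit, another receptor that signals through ERK, fell by 3.31 in the same comparison, and its part in these falls was not tested.

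Between the fractions of the first set, the counts of FGF pathway genes called were too small to set apart from the shares of all genes. In CR Sca1lo over Sca1hi, 0 of 23 receptor and pathway genes were called by limma (1 at an unadjusted p under 0.05), against 3.59% of all genes. Their median was 0.08 against 0.03 for all genes. With slide as a block, under which 17.7% of all genes were called in that comparison, 1 of the 23 was called higher. In EryCP over CR Sca1lo 2 of 23 were called higher and 1 lower, against 2.7% and 2.26% of all genes, and with slide as a block 3 and 3, against 9.03% and 11.2%. There Dusp6 rose by 1.29 ± 0.19 (limma, adjusted p = 0.00661) and Spred1, an inhibitor of the Ras pathway, by 0.78 ± 0.17 (limma, adjusted p = 0.04), while the decoy receptor Fgfrl1 differed by -0.76 ± 0.15 (limma, adjusted p = 0.0226). In CD34- CD103- over CD34+ CD103-, Dusp6 (0.65), Spred1 (0.58) and Fgfr1 (0.94) were the 3 called higher of 24, and Fgfrl1 (-0.67) and Fgfr3 (-0.46) the 2 called lower. Of all genes, 5.66% were called higher and 6.82% lower there. Fgfr1 was the 1 pathway gene called after Epo, at -0.78 in CD34- CD103- Epo over CD34- CD103- (limma, adjusted p = 0.0295), against 2.6% of all genes.

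**Figure D4:**
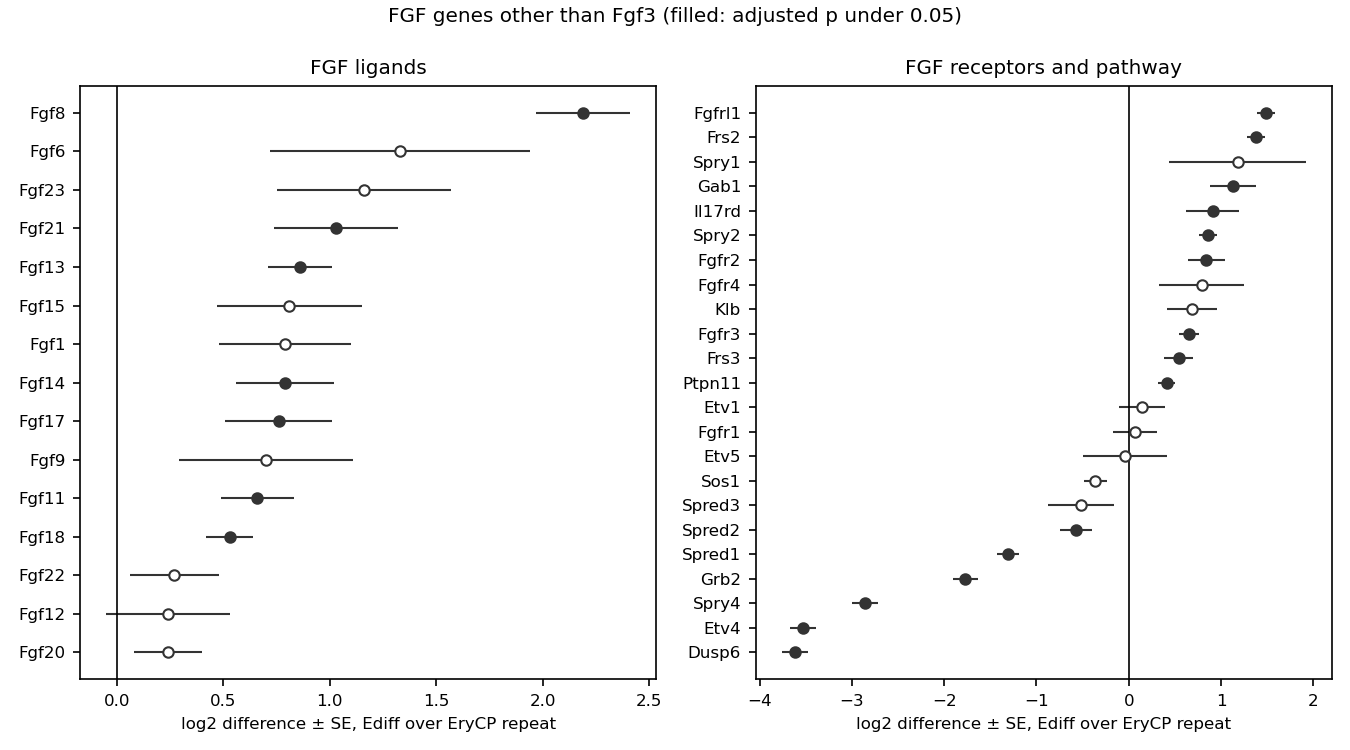
Each row is a gene of the FGF ligand list (left) or the receptor and pathway list (right), with the log2 difference in Ediff over EryCP repeat and its SE on the horizontal axis. The 15 ligands lie above 0 on this scale, where the median gene lies at 0.45, and this flips for most under spike-in scaling, where their median is -0.26. Dusp6 (-3.62) and Etv4 (-3.53) lie far below 0, and Spry4, plotted at its fitted value, was not well above background in Ediff.

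Other TRIM genes were called, in either direction, at shares near those of all genes in CR Sca1lo over Sca1hi and in Ediff over EryCP repeat. Of 65 further TRIM genes, 56 were on the array. In CR Sca1lo over Sca1hi, 0 of 50 were called higher by limma (2 at an unadjusted p under 0.05) and 2 lower: Trim30a (-1.22 ± 0.18; limma, adjusted p = 0.00881) and Trim26 (-0.89 ± 0.13; limma, adjusted p = 0.00927), against 3.59% of all genes in either direction. With slide as a block 5 were called higher and 8 lower, against 9.64% and 8.1% of all genes. In Ediff over EryCP repeat, 16 of 48 were called higher and 13 lower, against 56.6% of all genes in either direction. Under spike-in scaling 1 was called higher and 26 lower, where 12036 of 24703 genes were called, 6.78% of them higher. On the main scale Trim10, a gene of terminal erythroid differentiation, rose by 7.19 ± 0.21 (limma, adjusted p = 3.98e-06) while Trim36 (-2.16) and Trim12a (-2.14) were called lower. Trim36 lay between -3.21 and -0.08 over the background corrections and scalings tried. In CD34- CD103- over CD34+ CD103-, 1 of 52 was called higher (Pml, 0.49) and 5 lower, led by Trim30a (-1.35) and Trim62 (-0.54). The shares of all genes there were 5.66% and 6.82%. In CD34- CD103- Epo over CD34- CD103- 0 of 52 were called by limma (4 higher and 1 lower at an unadjusted p under 0.05), against 2.6% of all genes.

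Among partners of Trim16 in damaged-vesicle clearance and oxidative stress, Lgals8 had the most calls. In CR Sca1lo over Sca1hi, 3 of 10 were called lower and 0 higher by limma (0 higher also at an unadjusted p under 0.05): the galectin gene Lgals8 (-2.01 ± 0.16; limma, adjusted p = 0.000475), the autophagy receptor gene Sqstm1 (-1.15 ± 0.23; limma, adjusted p = 0.0338) and Nfe2l2, which encodes the stress factor NRF2 (-0.79 ± 0.16; limma, adjusted p = 0.0342). Of all genes, 2.38% were called lower and 1.21% higher there. Lgals8 differed by 1.52 in EryCP over CR Sca1lo, by 1.01 in CD34- CD103- over CD34+ CD103- (limma, adjusted p = 5.18e-05) and by -1.1 in CD34- CD103- Epo over CD34- CD103- (limma, adjusted p = 0.000176). These comparisons share samples with one another within a set. In Ediff over EryCP repeat, 3 of the 10 were called higher and 3 lower, against 39.8% and 16.8% of all genes. Lgals3 differed by -0.96 and Map1lc3b by 0.9, and the sign of Map1lc3b turned under spike-in scaling. That scaling called 0 of the 10 higher and 9 lower, and 12036 of 24703 genes, 6.78% of the latter higher.

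Among 8 genes of the Plac8 family and its partners, Cebpb was the 1 gene called in CR Sca1lo over Sca1hi, at -1.61 ± 0.15 (limma, adjusted p = 0.00102). Of all genes, 3.59% were called in that comparison. Cebpb encodes the transcription factor C/EBP beta, for which PLAC8 acts upstream in mouse brown fat. In Ediff over EryCP repeat Cebpb rose by 3.13 ± 0.12 (limma, adjusted p = 1.11e-05), opposite in sign to Plac8 in both. In CD34- CD103- over CD34+ CD103- it rose with Plac8, by 1.16 ± 0.14 (limma, adjusted p = 0.000244), and in CD34- CD103- Epo over CD34- CD103- it fell by 1.00 ± 0.15 (limma, adjusted p = 0.00435).

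The other partners moved less. Plscr1, which encodes a scramblase that binds PLAC8, fell by 1.63 in Ediff (limma, adjusted p = 0.000113) and by 0.46 in CD34- CD103- over CD34+ CD103- (limma, adjusted p = 0.00611). In Ediff the family member Cnfn (0.98), Myc (0.55) and Trp53 (0.52) were called higher and Akt1 (-0.52) lower, and the signs of Cnfn, Myc and Trp53 turned under spike-in scaling. With Cebpb and Plscr1 counted, 4 of the 8 were called higher and 2 lower there, against 39.8% and 16.8% of all genes. The median gene differed by 0.45, close to the values of Myc and Trp53. Mdm2 (0.29) and the family member Plac8l1 (0.19) were not called there. In CD34- CD103- over CD34+ CD103-, Mdm2 was called higher (0.39) and Myc lower (-0.44). With Cebpb and Plscr1 counted, 2 of the 8 were called higher and 2 lower, against 5.66% and 6.82% of all genes.

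The measured genes next to Plac8, Fgf3 and Trim16 on their chromosomes were too few to set their calls apart from the shares of all genes. Of the 10 nearest RefSeq genes of each, 7 were measured for Plac8, 3 for Fgf3 and 2 for Trim16. In CR Sca1lo over Sca1hi, Ano1 near Fgf3 was the 1 gene of these 12 called (1.86 ± 0.34; limma, adjusted p = 0.0222), against 3.59% of all genes. Ano1 encodes a chloride channel, was well above background on 1 of 3 Sca1hi arrays, and had a difference of -0.06 with normexp correction. In EryCP over Sca1hi, where 6.39% of all genes were called, Ano1 was called higher too (1.8), but differed by -1.04 with normexp correction. In Ediff over EryCP repeat none of the 5 measured neighbours of Fgf3 and Trim16 was called lower by limma (0 also at an unadjusted p under 0.05), against 16.8% of all genes. There Fadd, which encodes a death receptor adaptor (0.88), and Ano1 (0.62) near Fgf3 were called higher, and both signs turned under spike-in scaling. Near Plac8 Sec31a fell by 0.68 (limma, adjusted p = 0.00469) while Helq (1.38) and Mrps18c (1.08) rose, against a median of 0.45 for all genes. In CD34- CD103- over CD34+ CD103- and in CD34- CD103- Epo over CD34- CD103-, 0 of the 12 were called by limma (2 in each at an unadjusted p under 0.05). The shares of all genes called there were 12.5% and 2.6%.

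Over the 26 arrays, with each set centred on its own mean, Fgf3 and Trim16 were each the other's closest match among 15261 genes (Pearson r = 0.985, n = 26 arrays). Within the sets r was 0.984, 0.994 and 0.772. Plac8 followed both less closely, with r = 0.944 for Fgf3 and 0.94 for Trim16, and within the third set r was -0.646 and -0.598. These correlations rest on the same 26 arrays and largely on the gap between Ediff and EryCP repeat, and they are descriptions without a test. The first set also holds the arrays that chose these genes for the same large difference. A high r between them was thus built in there, and nothing is read from it.

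The genes most like Plac8 were Pdzph1 (r = 0.974), Aqp11, which encodes an aquaporin (0.973), and Cilk1, which encodes a kinase of the primary cilium (0.971). Of these, Aqp11 followed Plac8 in the third set as well (r = 0.897), Pdzph1 less so (0.416) and Cilk1 not (-0.155). After Trim16, Igfbp4, which encodes a binding protein of insulin-like growth factors, was closest to Fgf3 (r = 0.982), with Kif5a, a kinesin gene, next (0.972). For Trim16 the next were Cilk1 (0.973) and Igfbp4 (0.968). Igfbp4 differed by 2.06 in CR Sca1lo over Sca1hi, -0.39 in EryCP over CR Sca1lo and -4.69 in Ediff over EryCP repeat. Each was smaller in size than the Fgf3 difference (3.15, -1.2 and -5.73). The first 2 Fgf3 values come from the arrays that chose Fgf3, so nothing is read from their size.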

How the data were processed

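RNA from 15 samples titled EML and 11 titled EMLe2 (150 ng each, per the labels) was measured on 1-colour Agilent arrays. Per the file headers, the authors used Agilent Feature Extraction (10.1.1.1, but 10.7.1.1 on the third set's slides). Deposited scanner output gives spot intensity on a linear scale, with the processed signal already background-subtracted, and marks for outlying spots and spots well above background. The deposited value table holds log2 values whose centring is not stated. Set against the scanner files, its columns in 2 sets tracked the median signal (lowest r 0.9946 and 0.997), whereas those of the third set tracked the processed signal (lowest r 0.9998). Over all columns the medians lay between 7.08 and 7.29.

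The main value was log2 of the processed signal minus the array's 75th percentile (425.3 to 1247 before log2). Spots marked as outlying were dropped, and a probe's spots were averaged. Probes were kept if well above background (at least 0.5 of their spots) on every array of 1 group of the set. Symbols came from probe accessions through a RefSeq table of GRCm38.p6, which named 27071 of 41174 probes, and unnamed probes counted singly as genes. The brightest kept probe stood for a gene. Each set was fitted as a whole in limma 3.58.1 under R 4.3.3 (lmFit and eBayes, 2-sided, Benjamini-Hochberg over all genes, called under 0.05), and the fit was checked on simulated data. The number of arrays limits the precision. Replicates correlated at 0.9677 to 0.9932, and no pair of replicates held identical values.

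Plac8, Fgf3 and Trim16, the gene lists and the tests were chosen with earlier results of these data known. By rule the text names all 5 probes, the sorting markers, the 3 genes most like each of the 3, and per list and comparison the 3 called genes with the largest difference (every gene of the list for Plac8 partners); other list genes named were chosen after their values were seen. The alternatives were normexp correction, quantile and spike-in scaling, the deposited table, no dim filter, slide as a block, the mean of probes, another moderation, and leaving out each sample.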

Additional observations from a re-analysis of the deposited data

Results flagged for a closer look

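Each of the 5 probes was checked for samples far from the rest in the 2 groups of 4, which makes 10 checks, and chance flags about 1 in 20. Plac8 in CD34+ CD103- had a gap from its lowest sample to the next of 0.928 of the group's range: the samples stood at 0.85, 0.85, 0.84 and 0.68. For the Trim16 probe A_52_P212650 in CD34+ CD103- the share was 0.936, with the sample on the third slide at -2.84 and the others at -3.48, -3.47 and -3.44.

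The 2 Epo responses differed for each of the 3 genes by the test of the difference itself. The response of Ediff over EryCP repeat minus that of CD34- CD103- Epo over CD34- CD103- was -7.08 for Plac8, -6.23 for Fgf3 and -5.56 for Trim16 on the log2 scale. The 2 responses come from different slides, and only the Ediff samples are stated to be cells negative for CD34 and cKit after Epo, so selection and response cannot be told apart.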

How the results depend on the processing

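Of 393 values of the 3 genes under alternatives, 348 kept their direction and call (in the first set, moved by less than 1 SD), 14 moved, 22 were no longer called, 3 became called and 6 reversed. Values are given for Plac8, Fgf3 and Trim16 in that order, and the cause of each change was not tested. Normexp correction gave 2.64, 1.77 and 1.71 in CR Sca1lo over Sca1hi, 0.61, -0.79 and -0.84 in EryCP over CR Sca1lo (1.16, -0.24 and -0.29 relative to the median gene), 3.25, 0.98 and 0.87 in EryCP over Sca1hi, and -3.85, -2.02 and -1.43 in Ediff over EryCP repeat. It gave -0.42 for Plac8 in CD34- CD103- Epo over CD34- CD103-, and -2.51 and -2.1 for Fgf3 and Trim16 in the difference of Epo responses. Normexp without spots of outlying background, chosen after seeing the data, gave 3.83, 2.67 and 2.68 in CR Sca1lo over Sca1hi, and 3.98 for Plac8 and 1.58 for Trim16 in EryCP over Sca1hi. In CD34- CD103- Epo over CD34- CD103- it gave -0.41 for Plac8 and 0.49 for Fgf3, now called, and in CD34- CD103- Epo over CD34+ CD103- it gave -0.01 for Fgf3. Spike-in scaling gave -0.7 for Plac8 and 0.5 for Trim16 in CD34- CD103- Epo over CD34- CD103-. In CD34- CD103- Epo over CD34+ CD103- it gave 0.05, -0.51 and -0.32, with Fgf3 called lower (limma, adjusted p = 0.0256). With slide as a block, Plac8 was -0.47 in CD34- CD103- Epo over CD34- CD103- and Fgf3 -0.07 in CD34- CD103- Epo over CD34+ CD103-. Without the dim filter Plac8 was -0.45 in CD34- CD103- Epo over CD34- CD103-, and trended, robust moderation called Fgf3 there (0.5).

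Leaving out 1 sample gave -0.53 to -0.39 for Fgf3 in CD34- CD103- over CD34+ CD103-. For CD34- CD103- Epo over CD34- CD103- it gave -0.53 to -0.35 for Plac8 and 0.42 to 0.57 for Fgf3, called without CD34- CD103- sample 1 (limma, adjusted p = 0.046). Fgf3 in CD34- CD103- Epo over CD34+ CD103- ran from -0.03 to 0.1.

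The counts of genes called were 950 in CR Sca1lo over Sca1hi (372 to 637 with 1 sample left out), 1311 in EryCP over CR Sca1lo (727 to 1033), 1691 in EryCP over Sca1hi (833 to 1337), 13980 in Ediff over EryCP repeat (9665 to 17080), 3413 in CD34- CD103- over CD34+ CD103- (2520 to 3623), 710 in CD34- CD103- Epo over CD34- CD103- (338 to 765), 1510 in CD34- CD103- Epo over CD34+ CD103- (677 to 1377) and 10316 in the difference of Epo responses (8626 to 12840). For the 3 comparisons of the first set, in that order, normexp gave 2, 73 and 98, spike-in scaling 230, 515 and 714, the deposited values 2217, 2987 and 2888, and slide as a block 4696, 5346 and 5508. Quantile normalization gave 1611 and 2308 in the first and second of them. Normexp gave 235 in Ediff over EryCP repeat, 366 in CD34- CD103- Epo over CD34- CD103-, 878 in CD34- CD103- Epo over CD34+ CD103- and 862 in the difference of Epo responses. Spike-in scaling gave 9299 in CD34- CD103- over CD34+ CD103- and 17195 in CD34- CD103- Epo over CD34+ CD103-, and the other moderation 1095 in CD34- CD103- Epo over CD34- CD103-.

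The share of calls that were higher was 33.7% in CR Sca1lo over Sca1hi (normexp 0% of 2 calls, slide as a block 54.3%), 54.5% in EryCP over CR Sca1lo (normexp 79.5%), 70.2% in Ediff over EryCP repeat (normexp 24.3%, quantile 59%, spike-in 6.78%, deposited values 58.2%), 45.4% in CD34- CD103- over CD34+ CD103- (spike-in 6.04%), 26.1% in CD34- CD103- Epo over CD34- CD103- (spike-in 0.977%, normexp without spots of outlying background 44.9%), 46.6% in CD34- CD103- Epo over CD34+ CD103- (spike-in 0.837%) and 62% in the difference of Epo responses (normexp 29.8%, quantile 50.9%, spike-in 10%). No paired analysis was possible because no 2 groups of a set share a sample number in their titles. The slide, which held 1 sample of each fraction in the first set, was fitted as a block instead. Signal near background limits the values of Ediff and of the dimmest Trim16 probe.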
